A study of Homo sapiens with 6 samples.

Results

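The genes described here are 38 genes of glycolysis and of the transcriptional response to low oxygen. They were chosen by symbol, as a list of transporters, enzymes, regulators and hypoxia-inducible genes, by a rule that uses no measured value. Earlier results of these data were, however, known when the list was made. Each symbol matched 1 row of the count table, so that 38 of 57820 rows were taken. Of these, 36 were among the 19676 genes with enough counts to be tested, and the lactate exporter gene SLC16A3 and the carbonic anhydrase gene CA9 were not.

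RNA was sequenced from HEK293T, a human embryonic kidney line transformed with adenoviral DNA that also carries the SV40 large T antigen. All cells received RfxCas13d, a CRISPR effector that cleaves RNA matched by its guide (crRNA), and all were grown in DMEM with 10% serum at 10% CO2. In 3 libraries, called biological replicates in the labels, the crRNA was non-targeting (NT), and in 3 others it was directed at mCherry, a red fluorescent protein mRNA that the human genome does not encode (TAR). The oxygen level, the dose and time of treatment, how the components were delivered and whether the cells held mCherry mRNA are not stated in the labels. The data come from 1 cell line, and whether replicates were separate cultures is not stated, so p-values measure the spread between these libraries, which may be in part technical.

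Glycolysis splits glucose into pyruvate. Hexokinase traps glucose in the cell, phosphofructokinase commits it to the pathway, and pyruvate kinase closes it. Proliferating lines such as HEK293T send much of the pyruvate to lactate through lactate dehydrogenase. The transcription factor subunit HIF1A raises many of these genes when oxygen is low, and prolyl hydroxylases of the EGLN family mark it for destruction when oxygen is present.

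Library totals ran from 21321850 to 25906275 counts. The small nuclear RNA 7SK, which lacks a poly(A) tail, took 0.516%, 1.15% and 1.37% of counts in NT replicates 1 to 3 and 0.716%, 0.439% and 1.15% in TAR replicates 1 to 3. The libraries thus formed a set under 1% (NT 1, TAR 1 and TAR 2) and a set above it (NT 2, NT 3 and TAR 3). Libraries also differed in how levels followed transcript GC content, with slopes from -0.0065 to 0.18 log2 units per 10 points of GC in the NT libraries and from -0.10 to -0.043 in the TAR libraries. Of the HEK293T markers, 9 of 11 matched a row and all 9 were tested, with a summed level of 566 to 661 CPM (each count divided by its library's scaled total) in the NT and 544 to 641 CPM in the TAR libraries. The markers of other lineages summed to between 15.99 and 22.3 CPM for fibroblasts, 1.498 and 2.11 CPM for blood and 0.198 and 0.509 CPM for hepatocytes. DCN and FAP, PTPRC, HBA1 and HBB, and TTR, AFP and SERPINA1 were at 0 counts in all 6 libraries.

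Against that background, most glycolytic enzyme genes lay lower in the TAR libraries, by up to a log2 fold change of -0.48 ± 0.10 (SE) for ENO2, and none of them passed the test. Over the 36 tested genes the median log2 fold change was -0.17, against -0.0037 over all genes tested, and 26 of the 36 were below 0 (50.6% of all genes were). No gene of the 36 had an adjusted p under 0.05 in edgeR's quasi-likelihood test with Benjamini-Hochberg adjustment over all 19676 genes, where 0.0102% of genes were called. The smallest adjusted p was 0.193. At an unadjusted p under 0.05, 8 of the 36 were lower (6.09% of all genes) and 1 was higher (10.0% of all genes). DESeq2 called 1 of them, ENO2, as lower (0.859% of all genes were called, 0.173% as lower and 0.686% as higher), and limma-voom called 0. With no filter on low counts edgeR called 4 as lower, PFKFB4, ALDOA, GAPDH and ENO2 (1.68% of all genes were called, 0.424% as lower and 1.25% as higher). In 7 genes every TAR library lay below every NT library (9.37% of all genes): ENO2, PFKFB4, ALDOA, ALDOC, PFKFB3, PDK2 and ANKRD37. In 2 genes, HIF1A and SLC16A1, every TAR library lay above (12.6% of all genes).

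**Figure D1:**
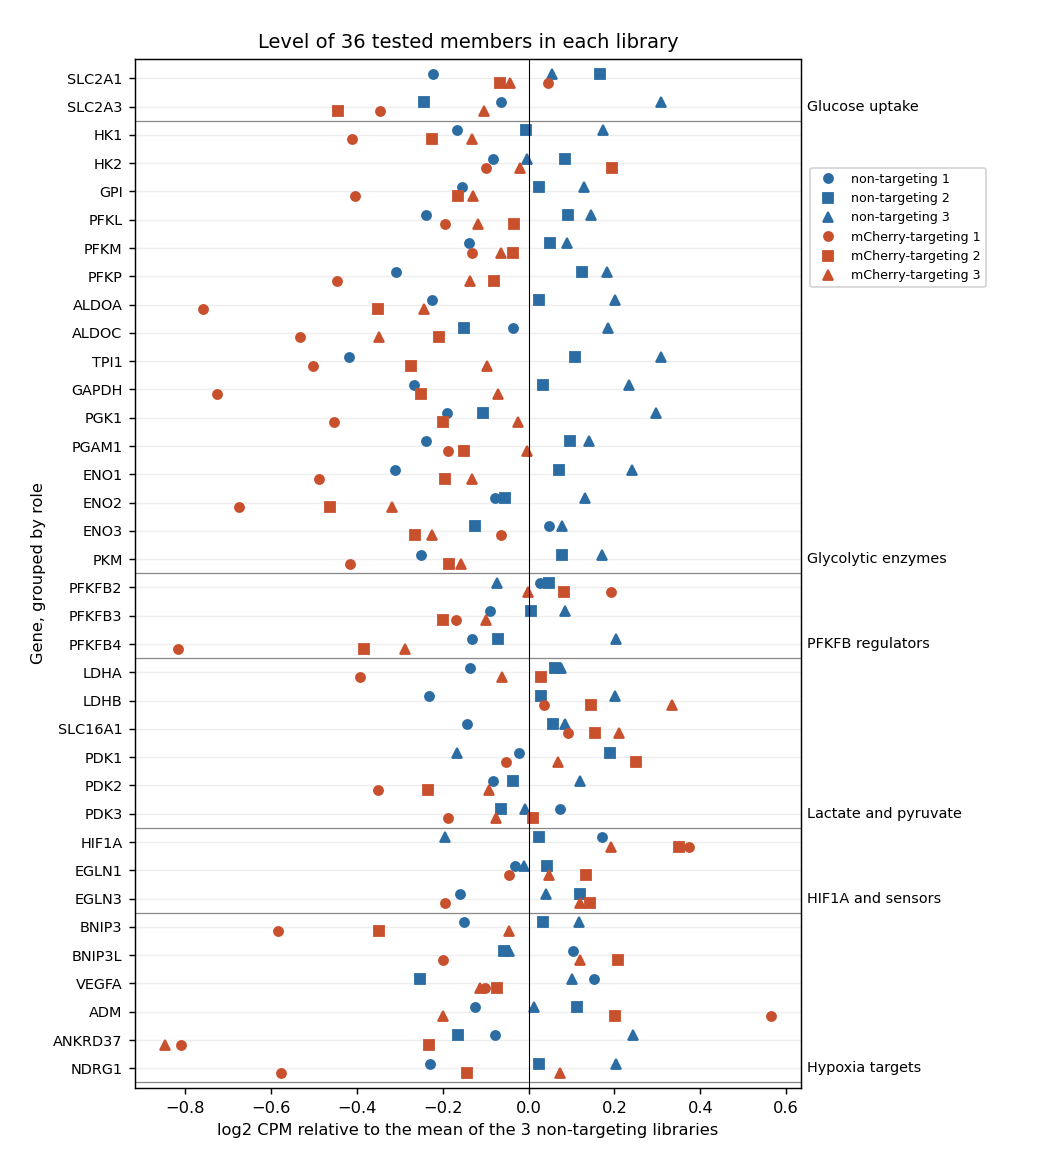
Level of each of the 36 tested genes in each library, as log2 CPM relative to the mean of the 3 NT libraries (x axis), with genes grouped by role (y axis). Blue points are NT and orange points TAR libraries, with a symbol for each replicate. NT replicate 3 is the rightmost library for 23 genes and TAR replicate 1 the leftmost for 21.

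The enolase genes encode the enzyme that makes phosphoenolpyruvate: ENO1 is the ubiquitous form, ENO2 the neuronal form and ENO3 the muscle form. ENO2 (chr12:6913745-6923698, plus strand, GRCh38) stood at 76.9, 78.1 and 89.0 CPM in the NT libraries and at 50.9, 58.9 and 65.1 CPM in the TAR libraries. All 3 TAR libraries were below all 3 NT libraries, and TAR replicate 1 was the lowest. The log2 fold change was -0.48 ± 0.10 (SE), with an unadjusted p of 0.00056 and an edgeR adjusted p of 0.193. Within the low 7SK set the TAR minus NT difference of ENO2 was -0.49, and within the high set it was -0.36. With the 7SK set as a term in the fit, ENO2 was called (log2 fold change -0.42, edgeR adjusted p = 0.0056), and it was also called when GC content was corrected as well (-0.34, edgeR adjusted p = 0.0454). The locus shares 499 bases on the same strand with LRRC23, whose count came to 11.6% of that of ENO2, and how reads there were assigned is not stated. ENO1 was at 1247, 1625 and 1830 CPM in the NT and 1103, 1353 and 1413 CPM in the TAR libraries, so that the ranges overlapped (-0.28 ± 0.15, edgeR adjusted p = 0.368). ENO3 ranged from 12.7 to 14.7 CPM in the NT and from 11.5 to 13.3 CPM in the TAR libraries (-0.18 ± 0.12), and PFN1, on the opposite strand over 970 bases of its locus, had 2809% of its counts.

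Aldolase splits fructose bisphosphate into a pair of trioses, and ALDOA and ALDOC encode its muscle and brain forms. ALDOA (chr16:30064164-30070457, plus strand) was at 794, 944 and 1068 CPM in the NT and at 549, 729 and 785 CPM in the TAR libraries. The groups did not overlap, but TAR replicate 3 came close to NT replicate 1. Its log2 fold change was -0.44 ± 0.14 (SE, edgeR adjusted p = 0.211), with -0.33 within the low and -0.35 within the high 7SK set. ALDOC (chr17:28573115-28577264, minus strand) was at 20.4, 18.8 and 23.8 CPM in the NT and at 14.4, 18.1 and 16.4 CPM in the TAR libraries. Here NT replicate 2 and TAR replicate 2 nearly met. The log2 fold change of ALDOC was -0.36 ± 0.13 (edgeR adjusted p = 0.225), and 4150 bases of its locus are shared on the same strand with the annotated gene AC005726.1, whose count came to 53.4% of that of ALDOC.

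The first step of the pathway gave the 1 enzyme above 0. HK1, the broadly expressed hexokinase, was at 120, 134 and 152 CPM in the NT and at 101, 115 and 123 CPM in the TAR libraries. Only TAR replicate 3 overlapped the NT range (log2 fold change ± SE -0.26 ± 0.10, as for each such value from here on, edgeR adjusted p = 0.260). HK2, the hexokinase induced by hypoxia and growth signals, was at 111, 124 and 117 CPM in the NT and at 109, 134 and 116 CPM in the TAR libraries. Both ranges of HK2 covered nearly the same levels (0.03 ± 0.09, edgeR adjusted p = 0.902). GPI, which converts glucose 6-phosphate to fructose 6-phosphate, was at 360, 407 and 438 CPM in the NT and at 302, 357 and 366 CPM in the TAR libraries. Again only TAR replicate 3 entered the NT range (-0.23 ± 0.11, edgeR adjusted p = 0.305).

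Further down the pathway the ranges overlapped in every enzyme gene other than ENO2, ALDOA and ALDOC. GAPDH, which oxidises glyceraldehyde 3-phosphate and serves widely as a reference gene, was at 1671, 2056 and 2365 CPM in the NT and at 1215, 1689 and 1913 CPM in the TAR libraries. TAR replicate 1 lay far below the other libraries, while TAR replicates 2 and 3 lay between NT replicates 1 and 2 (-0.34 ± 0.17, edgeR adjusted p = 0.353). PKM, pyruvate kinase, was at 843, 1057 and 1128 CPM in the NT and at 751, 881 and 898 CPM in the TAR libraries. Here too NT replicate 1 was the lowest NT library and lay inside the TAR range (-0.26 ± 0.12, edgeR adjusted p = 0.334). TPI1 (triose phosphate isomerase) and PGK1 (phosphoglycerate kinase, one of the ATP-making steps) had log2 fold changes of -0.31 ± 0.17 and -0.23 ± 0.14, and PGAM1, phosphoglycerate mutase, -0.12 ± 0.11. Of the phosphofructokinase genes, PFKP was at -0.23 ± 0.13, PFKL (liver form) at -0.12 ± 0.10 and PFKM (muscle form) at -0.08 ± 0.08. For GAPDH, 64 pseudogene rows summed to between 1.19% and 1.79% of its count in a library.

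Over the 16 enzyme genes together, 15 were below 0 and their median was -0.24 on the log2 scale. The same libraries stood at the ends for nearly all of them: NT replicate 3 was the highest for 15 of the 16, and TAR replicate 1 was the lowest for 12. NT replicate 1 was the lowest for 3 and TAR replicate 2 for 1. Relative to the mean of all libraries, the median enzyme gene was at -0.093, 0.15 and 0.30 log2 units in NT replicates 1 to 3 and at -0.31, -0.067 and -0.022 in TAR replicates 1 to 3. NT replicate 1 thus lay among the TAR libraries. NT replicate 3 had the largest 7SK share and the steepest GC slope, and TAR replicate 1 the lowest GC slope; their part in the result was not tested.

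Glucose enters through SLC2A1 (GLUT1), the main transporter of most lines, and SLC2A3 (GLUT3), of higher affinity. SLC2A1 ranged from 29.5 to 38.6 CPM in the NT and from 32.8 to 35.5 CPM in the TAR libraries, with a log2 fold change of -0.03 ± 0.11. SLC2A3 ranged from 9.03 to 13.2 CPM and from 7.86 to 9.93 CPM (-0.31 ± 0.16, edgeR adjusted p = 0.375). For SLC2A3, 3 pseudogene rows summed to between 8.63% and 17.8% of its count in a library.

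The PFKFB genes encode bifunctional enzymes that make and break fructose 2,6-bisphosphate, the strongest activator of phosphofructokinase. PFKFB4 (chr3:48517684-48562015, minus strand), a known hypoxia-induced form, was at 24.9, 25.9 and 31.4 CPM in the NT and at 15.5, 20.9 and 22.3 CPM in the TAR libraries. The groups did not overlap, and TAR replicate 1 was well below the other libraries. Its log2 fold change was -0.49 ± 0.14 (SE, edgeR adjusted p = 0.200), with -0.47 within the low and -0.35 within the high 7SK set. PFKFB3, the form with the highest kinase activity, ranged from 78.4 to 88.5 CPM in the NT and from 72.7 to 77.9 CPM in the TAR libraries, a narrow gap (-0.16 ± 0.08, edgeR adjusted p = 0.361). PFKFB2, the heart form, ranged from 43.4 to 47.2 CPM and from 45.6 to 52.1 CPM (0.09 ± 0.09). YOD1, on the opposite strand over 9132 bases of the PFKFB2 locus, had more counts than PFKFB2 itself (290% over the libraries), and whether counting used strand is not stated in the labels.

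Genes that set the fate of pyruvate were split, with 3 of 6 tested below 0. LDHA, the lactate dehydrogenase subunit that favours lactate, ranged from 887 to 1027 CPM in the NT and from 743 to 995 CPM in the TAR libraries (-0.13 ± 0.12). LDHB, the heart-type subunit, ranged from 294 to 397 CPM and from 354 to 436 CPM (0.17 ± 0.12), so that the ranges of both overlapped. SLC16A1 (MCT1), a lactate and proton carrier, was at 305, 351 and 357 CPM in the NT and at 359, 375 and 390 CPM in the TAR libraries. The groups were separated by a narrow margin (0.15 ± 0.09, edgeR adjusted p = 0.442). SLC16A3 (MCT4), the exporter typical of hypoxic and strongly glycolytic cells, had 1, 2 and 7 counts in the NT and 6, 4 and 4 counts in the TAR libraries, too few to test.

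The pyruvate dehydrogenase kinases PDK1, PDK2 and PDK3 switch off entry of pyruvate into the citric acid cycle. PDK2 was at 23.3, 24.0 and 26.8 CPM in the NT and at 19.4, 20.96 and 23.1 CPM in the TAR libraries. The groups nearly met but did not overlap (-0.23 ± 0.11, edgeR adjusted p = 0.338). PDK1, the hypoxia-induced kinase, had a log2 fold change of 0.09 ± 0.11, and PDK3 one of -0.08 ± 0.09.

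HIF1A itself (chr14:61695513-61748259, plus strand) was at 87.6, 79.2 and 68.0 CPM in the NT and at 100.9, 99.3 and 88.9 CPM in the TAR libraries. All TAR libraries lay above all NT libraries, with TAR replicate 3 close to NT replicate 1. The log2 fold change was 0.30 ± 0.10 (SE, edgeR adjusted p = 0.216), the highest of the 36, with 0.19 within the low and 0.28 within the high 7SK set. By longest transcript HIF1A had the lowest GC content of the 36 genes, 36.4%, and after GC correction its log2 fold change was 0.05. Its principal transcript has 39.2% GC, where that of BNIP3L has 38.9%. With correction on the principal transcript the log2 fold change of HIF1A was 0.10. EGLN1 and EGLN3, the prolyl hydroxylases that sense oxygen, were at 0.05 ± 0.08 and 0.03 ± 0.14. The annotated EGLN3 locus shares 29568 bases on the same strand with SPTSSA, which had 429% of the counts of EGLN3. How reads there were assigned is not stated. HIF1A is controlled mainly through the stability of its protein, which was not measured.

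Among the hypoxia targets with other functions, BNIP3 and BNIP3L encode mitophagy receptors. BNIP3 was at 67.4, 76.5 and 81.1 CPM in the NT and at 49.9, 58.7 and 72.4 CPM in the TAR libraries. Only TAR replicate 3 overlapped the NT range (-0.31 ± 0.13, edgeR adjusted p = 0.262), and the difference was -0.32 within the low and -0.12 within the high 7SK set. BNIP3L was at 0.05 ± 0.11. ANKRD37, an ankyrin repeat gene induced in hypoxia, was at 1.59, 1.498 and 1.98 CPM in the NT and at 0.957, 1.43 and 0.934 CPM in the TAR libraries. This was the lowest log2 fold change of the 36, -0.60 ± 0.27 (edgeR adjusted p = 0.299), from a gene of few counts whose NT and TAR ranges nearly met. UFSP2, on the opposite strand over 1089 bases of the locus, had 1238% of the counts of ANKRD37, so that the strand doubt given for PFKFB2 holds here as well. The angiogenic factor VEGFA was at -0.11 ± 0.10, and NDRG1, a stress-responsive gene, at -0.20 ± 0.16. The vasodilator peptide gene ADM went the other way, at 0.22 ± 0.19, with 8.78 CPM in TAR replicate 1 and 5.18 to 6.83 CPM in the other 5 libraries. CA9, a classical marker of hypoxic cells, had 2, 1 and 4 counts in the NT and 1, 2 and 4 counts in the TAR libraries.

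Promoter sequences of ENO2, ALDOC and PFKFB4, the glycolytic enzyme and regulator genes with a single RefSeq window among those whose groups did not overlap, and of ENO1, the most abundant enolase, are printed to show the HIF core motif in them. Each is the 250 bases upstream of a RefSeq transcription start (GRCh38.p14), read 5′ to 3′ on the gene's strand. Capitals mark ACGTG or GCGTG on either strand, so that CACGT and CACGC are the same words read on the other strand, and CACGTG holds ACGTG once on each strand.
ENO2 promoter, chr12:6914330-6914579, plus strand: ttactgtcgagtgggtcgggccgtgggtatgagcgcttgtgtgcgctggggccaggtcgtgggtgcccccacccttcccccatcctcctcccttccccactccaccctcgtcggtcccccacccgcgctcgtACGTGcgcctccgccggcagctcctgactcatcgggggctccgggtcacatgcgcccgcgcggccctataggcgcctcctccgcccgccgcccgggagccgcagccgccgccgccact
ALDOC promoter, chr17:28576896-28577145, minus strand: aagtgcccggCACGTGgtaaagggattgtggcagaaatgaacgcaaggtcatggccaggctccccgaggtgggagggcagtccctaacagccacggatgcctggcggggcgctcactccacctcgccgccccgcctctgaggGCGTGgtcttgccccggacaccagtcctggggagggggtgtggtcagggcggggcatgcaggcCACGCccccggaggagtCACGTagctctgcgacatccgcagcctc
PFKFB4 promoter, chr3:48556804-48557053, minus strand: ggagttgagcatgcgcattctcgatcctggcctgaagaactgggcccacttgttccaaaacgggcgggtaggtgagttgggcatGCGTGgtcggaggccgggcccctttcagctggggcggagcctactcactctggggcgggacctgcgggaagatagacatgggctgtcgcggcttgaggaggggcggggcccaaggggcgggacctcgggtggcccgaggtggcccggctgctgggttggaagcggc
ENO1 promoter, chr1:8878687-8878936, minus strand: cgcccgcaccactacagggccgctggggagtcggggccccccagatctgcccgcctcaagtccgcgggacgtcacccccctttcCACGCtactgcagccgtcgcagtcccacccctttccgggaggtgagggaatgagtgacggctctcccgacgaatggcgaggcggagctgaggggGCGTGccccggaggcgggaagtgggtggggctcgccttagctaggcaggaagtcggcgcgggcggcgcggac
The window of ENO2 held ACGTG once and that of ALDOC 3 times, whereas those of PFKFB4 and ENO1 held only GCGTG. ALDOA, which has 3 windows and is not printed, held ACGTG 1, 2 and 1 times in them. RefSeq windows were matched by symbol for 32 of the 38 genes. Of their 62 windows, 37.1% held ACGTG, against 18.5% of 35116 windows of all genes, and 32.3% held GCGTG, against 32.2%. ACGTG or GCGTG was held by 56.5%, against 43.2%. Some genes gave several windows, in part overlapping, so the windows are not independent. The windows of these genes were also richer in GC, with a median of 68% against 58%. Among 12740 windows of all genes with a GC content of 58% to 72.7%, 23.1% held ACGTG and 57.2% held ACGTG or GCGTG. The 62 windows were not limited to that range and ran from 31.2% to 83.2% GC. Their shares of 37.1% with ACGTG and 56.5% with ACGTG or GCGTG are therefore not matched to it in GC content. No difference at like GC content can be read from them. GCGTG alone was not counted in the windows of 58% to 72.7% GC. A match is a word in the sequence and does not show binding.

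Fold changes of these genes followed the GC content of their transcripts. The 26 genes below 0 had a median GC content of 53.8% and the 10 above 0 one of 43.8%, while the median was 48.1% over all genes tested. Across the 36 genes Spearman's rho between log2 fold change and GC content was -0.40 and Pearson's r -0.41, a description over genes that share the same 6 libraries. Over all genes with a mean above 2 CPM, the median log2 fold change was 0.23 at a GC content of 35% to 40% and -0.15 at 55% to 60%. Within their own 5-point GC bin, 27 of the 36 genes lay below the median of all genes in that bin. In the 55% to 60% bin the 10 genes had a median of -0.27, with ADM the 1 gene above the bin's median.

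**Figure D2:**
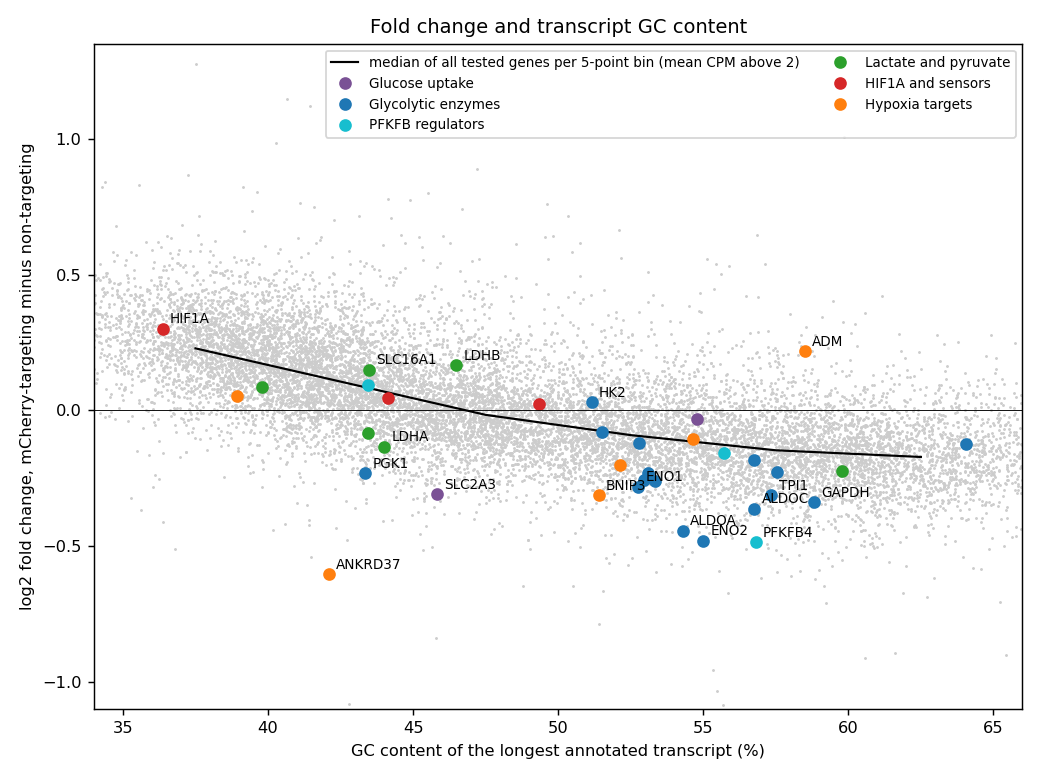
Log2 fold change, TAR minus NT (y axis), against the GC content of the longest annotated transcript (x axis, percent). Grey points are tested genes within the plotted range, the black line is their median per 5-point bin, and coloured points are the 36 genes by role; HIF1A sits at the low-GC end above 0 and ENO2, PFKFB4 and ALDOA lie below the line.

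After correction of counts for GC content in each library, the median of the 36 genes was -0.12 (all genes -0.012), 28 were below 0 (53.0% of all genes), and 0 were called (0.00508% of all genes). Spearman's rho with GC content was then -0.010. With the GC content of the principal protein-coding transcript, which is 60.1% rather than 54.3% for ALDOA, the median was -0.098 and 29 genes were below 0. ENO2 was at -0.38, PFKFB4 and ALDOA at -0.36 and ALDOC at -0.24 after correction on the longest transcript, and ANKRD37 at -0.74. On the principal transcript, of 55.3% rather than 42.1% GC, ANKRD37 was at -0.51, against -0.60 without correction. ALDOA was at -0.29 on the principal transcript. PGK1, a gene of 43.3% GC, moved from -0.23 to -0.33 and LDHA from -0.13 to -0.22. Other genes moved toward 0: PFKFB3 from -0.16 to -0.051, PDK2 from -0.23 to -0.075 and SLC16A1 from 0.15 to 0.052. GAPDH moved from -0.34 to -0.19, TPI1 from -0.31 to -0.18, PFKP from -0.23 to -0.096 and ENO3 from -0.18 to -0.065. The enzyme median was -0.18, and that of the PFKFB genes -0.05.

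The 7SK sets gave the following values within each. In the low set (NT replicate 1 against TAR replicates 1 and 2) 21 of the 36 genes were below 0 with a median of -0.072, where all genes had 0.0074. The high set (NT replicates 2 and 3 against TAR replicate 3) had 28 below 0 with a median of -0.14, where all genes had 0.0018. In both sets 20 genes were below 0. TPI1 was at 0.03 in the low set and -0.31 in the high set, ENO1 at -0.03 and -0.29, and PKM at -0.05 and -0.28. With the 7SK set as a term the median over the 36 genes was -0.12 (all genes 7.2e-05) and edgeR called 3 of them, ENO2, PFKFB4 (adjusted p = 0.0348) and ALDOA (adjusted p = 0.0488), where 3.62% of all genes were called, 0.869% as lower and 2.75% as higher. With GC correction as well the median was -0.058 (all genes -0.00047), 26 genes were below 0, and ENO2 alone was called, where 0.219% of all genes were called and 0.0661% as lower. Without NT replicate 1, which leaves only NT libraries of the high 7SK set, 9 genes were called (8.98% of all genes, 3.31% as lower and 5.68% as higher): HK1, PFKP, PFKFB4, ALDOA, TPI1, ENO1, ENO2 and PKM as lower and HIF1A as higher. Without any other single library edgeR called 0 of them. With the replicate number as a block, although same-numbered libraries did not all deviate together, 7 were called, 6 as lower and 1 as higher (6.14% of all genes, 1.69% as lower and 4.46% as higher).

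Choice of isozyme was compared as shares of CPM per kb of transcript within 11 families, together with the summed share of all 38 genes, 12 exact permutation tests in all. With 3 against 3 libraries the smallest p is 0.1. HK2 made up 39.0%, 39.1% and 34.7% of hexokinase transcripts (HK1 plus HK2) in the NT libraries and 42.7%, 44.6% and 39.4% in the TAR libraries. It was the 1 lead isozyme, the member tested in each family, whose groups did not overlap (difference 4.66 percentage points, two-sided exact permutation p = 0.1, adjusted p = 0.6 over the 12). Per kb of the median transcript length the HK2 difference was 2.01 points. LDHA made up 64.2% ± 1.82 (SD, n = 3) of lactate dehydrogenase transcripts in the NT and 59.1% ± 2.86 (SD, n = 3) in the TAR libraries, where only TAR replicate 2 reached the NT range (exact permutation p = 0.2, adjusted p = 0.6). BNIP3 made up 62.8% ± 3.64 and 56.6% ± 3.31 (SD, n = 3) of BNIP3 plus BNIP3L (exact permutation p = 0.2, adjusted p = 0.6), and after GC correction on the longest transcript that difference of -6.11 points was -1.92. The longest BNIP3 transcript has 51.4% GC and the principal one 44.8%. The corrected log2 fold change of BNIP3 was -0.27 on the former and -0.39 on the latter, and that of BNIP3L -0.15 and -0.16. The other 8 families gave exact permutation p-values from 0.3 to 0.7. Members other than the lead were not tested, and among these, apart from HK1, the groups also separated for PFKFB2, PFKFB4 and ENO2. PFKFB4 made up 22.5%, 22.3% and 25.4% of PFKFB transcripts in the NT and 15.4%, 20.3% and 20.8% in the TAR libraries, and PFKFB2 21.3%, 20.5% and 17.7% in the NT and 26.2%, 23.7% and 21.5% in the TAR libraries. The PFKFB4 share was thus lower and the PFKFB2 share higher in every TAR library, but for PFKFB2 TAR replicate 3 nearly met NT replicate 1. The transcripts of PFKFB2 and PFKFB4 have 43.5% and 56.8% GC. After GC correction their log2 fold changes were -0.0024 and -0.36. ENO2 made up 5.17%, 4.10% and 4.14% of enolase transcripts in the NT and 3.91%, 3.73% and 3.93% in the TAR libraries.

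Some families were dominated by 1 isozyme, and others were mixed. ENO1 made up 94.1% ± 0.918 of enolase and ALDOA 97.2% ± 0.345 of aldolase transcripts in the NT libraries (SD, n = 3). SLC2A1 made up 79.3% ± 3.89 of the glucose transporter pair, and SLC16A1 99.96% of the lactate carrier pair. The phosphofructokinases were mixed, with 43.5% PFKM, 31.8% PFKL and 24.7% PFKP per kb of the longest transcript, but 34.5%, 47.0% and 18.5% per kb of the principal transcript, so that their order depends on the transcript chosen. Per kb of the principal transcript in the NT libraries, GAPDH was the most abundant (1083 ± 185 CPM per kb), followed by ENO1 (668 ± 126), ALDOA (583 ± 85.4), TPI1 (477 ± 116), LDHA (404 ± 32.3) and PKM (371 ± 54.7), where each ± is an SD over 3 libraries. From ENO1 down, the ranges of mean ± SD of neighbours in this order overlapped. The 38 genes together took 1.05% ± 0.109 of counts in the NT and 0.914% ± 0.0908 in the TAR libraries (SD, n = 3, exact permutation p = 0.3).

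**Figure D3:**
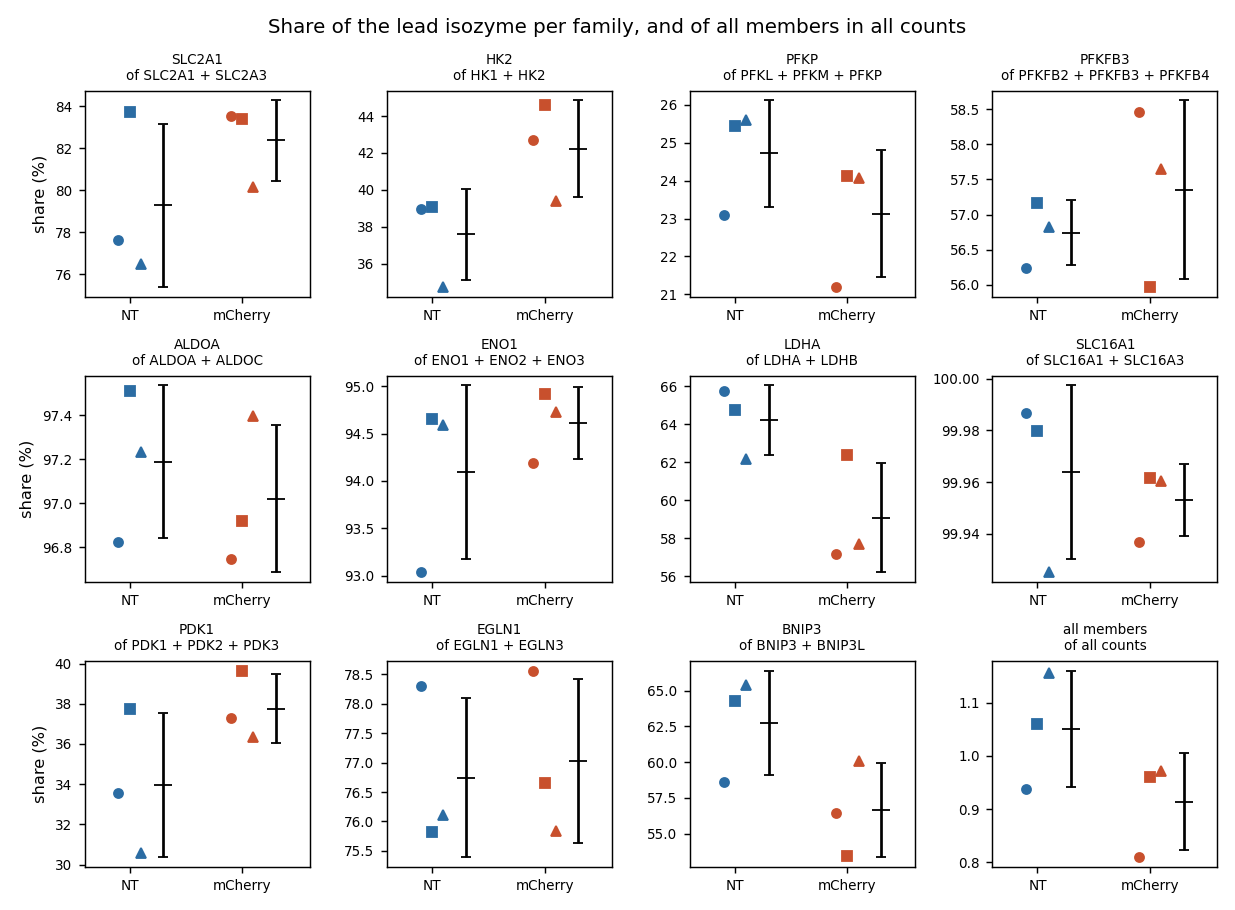
Share of the lead isozyme among transcripts per kb of its family, and of all 38 genes among all counts (y axes, percent, not starting at 0), in the 3 NT (blue) and 3 TAR (orange) libraries, with mean ± SD beside the points. The HK2 panel, at 34.7% to 39.1% and 39.4% to 44.6%, is the 1 lead isozyme without overlap.

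Other genes of these pathways, from 4 lists, gave no call by edgeR, and DESeq2 called 1 gene of them, PLOD2 (0.859% of all genes). Of 38 further glycolysis and transport genes 24 were tested, and 12 were below 0 and 12 above (median 0.0089). Those with the smallest p were SLC2A13 (0.41 ± 0.13), a myo-inositol carrier, PGM2L1 (0.40 ± 0.14), a sugar bisphosphate synthase, and GPD2 (0.22 ± 0.09), the mitochondrial glycerol phosphate dehydrogenase, with edgeR adjusted p-values of 0.207, 0.219 and 0.287. After GC correction SLC2A13, PGM2L1 and GPD2 were at 0.17, 0.19 and 0.045. All 25 pentose phosphate and pyruvate genes were tested, with 14 below 0 (median -0.043). RPE (0.35 ± 0.11), an epimerase of the pentose phosphate pathway, DLD (0.19 ± 0.08), a pyruvate dehydrogenase subunit, and PDPR (-0.24 ± 0.09), a regulator of its phosphatase, led them, and after GC correction they were at 0.11, -0.013 and -0.21, so that DLD changed sign. Of 16 tested genes that control HIF, 12 were below 0 (median -0.067), and the leading ones were CUL2 (0.26 ± 0.09), the cullin of the VHL ligase, USP20 (-0.20 ± 0.09) and SIAH2 (-0.21 ± 0.10), which were at 0.079, -0.051 and -0.093 after GC correction. Of 37 other HIF targets tested, 20 were below 0 (median -0.0084). PLOD2, a collagen lysyl hydroxylase, was at 77.9, 75.8 and 74.2 CPM in the NT and at 90.0, 99.5 and 102.9 CPM in the TAR libraries. Its groups did not overlap (0.36 ± 0.08, edgeR adjusted p = 0.193), and after GC correction it was at 0.08. JMJD6 (-0.25 ± 0.09) and MAFF (-0.67 ± 0.24) followed, at -0.22 and -0.51 after GC correction. Unadjusted p-values under 0.05 were found for 4, 4, 2 and 5 genes of the 4 lists in that order, where 6.09% of all genes had such a p as lower and 10.0% as higher.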

How the data were processed

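The authors deposited raw counts per gene, 1 column per library, in 1 table of 57820 Ensembl identifiers. The submitters' processing notes name the tools cutadapt 4.4 and STAR 2.7.4a and the genome hg19 (GRCh37). The counter and its strand setting are not named in the labels. Per the labels' protocols, the libraries were poly(A)-enriched, random-primed and strand-marked, so counts depend on transcript length and GC content, and antisense or overlapping genes are uncertain.

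Identifiers were matched without version to GENCODE 29 (GRCh38), which gave 51996 rows a symbol, and gene coordinates are from it. Tests of the counts used edgeR 4.0.16 under R 4.3.3 (TMM, filterByExpr, robust quasi-likelihood F test, group as the only term). Adjusted p-values (Benjamini-Hochberg) cover all 19676 genes tested, and a gene under 0.05 was called. CPM values are TMM-scaled. GC correction used loess offsets per library (span 0.5) on the longest transcript, known for 96.0% of tested genes, or on the principal one. The 7SK term splits libraries at 1% of counts. DESeq2 1.42.0, limma-voom (limma 3.58.1), other scalings and filters, a replicate block and leaving out each library were alternatives; those on principal transcripts were added after seeing the data. Shares were compared by exact two-sided permutation over 20 assignments. The test was tested on simulated counts of 19668 genes.

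The genes, lists and alternatives were chosen with earlier results of these data known. Full values are given for the 12 genes with the smallest unadjusted p and for isozyme families in which the share of the lead isozyme did not overlap between groups, and for each other list the 3 genes with the smallest p are named. ENO1, SLC16A1, SLC16A3, CA9 and PLOD2, given in every library outside that rule, and the PFKFB2, PFKFB4 and ENO2 shares were chosen after their values were seen.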

Additional observations from a re-analysis of the deposited data

How the results depend on the processing

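Over 20 alternatives, 25 of the 36 tested genes kept the direction of their log2 fold change, 21 of them below 0 and 4 above. The median of the 36, -0.17 with group alone, ranged from -0.23 (without NT replicate 1) to -0.058 (7SK term with GC correction). The genes called among the 36 numbered 0 in the edgeR fit on group alone, 4 with no filter on low counts (PFKFB4, ALDOA, GAPDH and ENO2), 1 with DESeq2, 3 with the 7SK term, 1 with the 7SK term and GC correction, and between 0 and 9 when each library was left out in turn, the 9 without NT replicate 1. The genes called over the whole table numbered 2 in that fit, 1 with library sizes alone, 597 with no filter, 1 with a mean CPM of at least 5, 169 with DESeq2, 1 with limma-voom, 1 with GC correction on either transcript, 712 with the 7SK term, 43 with the 7SK term and GC correction, and between 1 and 1806 with a library left out. The cause of these shifts was not tested.

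With the replicate number as a block, edgeR called 1209 genes and 7 of the 36 (HK1, PFKFB4, ALDOA, GAPDH, ENO2 and BNIP3 as lower, HIF1A as higher), and with the replicate block and GC correction 6 genes and 0 of the 36. Same-numbered libraries deviated together with correlations of 0.356, -0.018 and 0.550, so the libraries were not treated as paired. In the other lists the block called 2 of 24 further glycolysis, 2 of 25 pentose phosphate and pyruvate, and 4 of 37 other HIF target genes. Over all genes the block called 6.14%. The 7SK term called 2, 2 and 1 in these lists (3.62% of all genes), and no filter 0, 1 and 1 (1.68% of all genes). DESeq2 called 1 other HIF target (0.859% of all genes). With a library left out these lists had 0 to 3, 0 to 4 and 0 to 2 calls, the highest without NT replicate 1 (8.98% of all genes).

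Of the 36 genes 11 changed sign under some alternative, and so did DLD of the other lists, which was at 0.19 with group alone. With GC correction SLC2A1 was at 0.063, PFKL at 0.048, PFKFB2 at -0.0024, PDK1 at -0.096, EGLN1 at -0.033, BNIP3L at -0.15 and DLD at -0.013. With the replicate block and GC correction they were at 0.069, 0.050, -0.0030, -0.097, -0.034, -0.16 and -0.012. With GC and length correction SLC2A1 was at 0.092, PFKL at 0.062, PFKM at 0.00038, PDK1 at -0.14, EGLN1 at -0.024, BNIP3L at -0.14, VEGFA at 0.0044 and DLD at -0.0034. With the 7SK term SLC2A1 was at 0.026. With that term and GC correction SLC2A1 was at 0.11, PFKL at 0.081, PFKM at 0.0086, PFKFB2 at -0.0079, PGAM1 at 0.034, PDK1 at -0.056, EGLN1 at -0.00061, BNIP3L at -0.12 and DLD at -0.0015. With GC content of the principal transcript SLC2A1 was at 0.058, PFKL at 0.045, PFKFB2 at -0.013, PDK1 at -0.10, EGLN1 at -0.043, EGLN3 at -0.016, BNIP3L at -0.16 and DLD at -0.020. With a library left out SLC2A1 ranged from -0.13 to 0.055, the latter without NT replicate 2. HK2 was at -0.011 without NT replicate 1 and -0.060 without TAR replicate 2. EGLN3 ranged from -0.050 to 0.13, with -0.050, -0.035 and -0.024 without NT replicate 1, TAR replicate 2 and TAR replicate 3, and BNIP3L from -0.032 (without TAR replicate 2) to 0.17. The cause was not tested.

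Isozyme differences moved in 6 cases: HK2 to 2.01 points and PFKFB3 to -1.41 with the median transcript length, PFKFB3 to -0.9998 without division by length, and PFKFB3 to 2.21, PDK1 to 0.506 and BNIP3 to -1.92 with GC-corrected counts. Depth limits SLC16A3, CA9 and ANKRD37. On simulated counts the edgeR test called 59.7% of genes changed 1.5-fold and 97.01% of those changed 2-fold. It also called 7 unchanged genes. The simulation used the same dispersion for every gene, changed only genes of higher counts and held no 7SK or GC differences between libraries. These shares therefore may not hold for the real libraries. The largest changes among the 36 genes were 1.52-fold for ANKRD37 and 1.40-fold for PFKFB4. All but ANKRD37 were thus below 1.5-fold, the smallest change simulated.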
